A study of Mus musculus with 2 samples.

Results

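Nodal is a secreted signal of the TGF-beta family that drives mesoderm and endoderm formation in the early embryo. It acts through activin receptors together with the membrane co-receptor Cripto, which is encoded by Tdgf1, and through SMAD proteins that work with the forkhead factor FOXH1. Its targets include its own antagonists Lefty1 and Lefty2, the feedback genes Smad7 and Pmepa1, and the transcription factor genes Gsc, Mixl1 and Lhx1 of the streak and its anterior derivatives. These 10 genes, of 32285 counted, were selected by symbol. They were followed in single cells of gastruloids: clumps of mouse embryonic stem (ES) cells that set up a body axis in a dish.

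About 300 ES cells were aggregated in serum-free N2B27 medium, treated from day 2 with 3 µM CHIR, an inhibitor of GSK3 that activates Wnt signalling, and collected 12 h later, at day 2.5. One group was the wild type R1 line and the other was labelled as R1 cells that are double mutant for the transcription factor genes Sp5 and Sp8. The labels name neither the alleles nor the number of clones, and the aggregates of each genotype were pooled. Each genotype therefore had 1 library, with no replicate check for any difference, and intervals below are exact 95% intervals that cover counting error only. Cells were barcodes with at least 2500 UMIs (molecules counted once by a tag), at least 1000 genes and at most 10% mitochondrial UMIs. This left 8707 cells (97157331 UMIs) of the wild type library and 10587 cells (97644169 UMIs) of the one labelled double mutant. The median cell had 10571 and 8637 UMIs, respectively.

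RNA of the targeted genes was higher, not lower, under the double mutant label. Levels are given as CPM, the UMIs of a gene scaled to the UMIs of all cells of the library. Sp5 stood at 109.1 CPM under the wild type label and at 478.7 CPM under the double mutant label, and Sp8 at 20.8 and 40.1 CPM. As the alleles are not named, these RNA levels do not settle whether the label is right. The libraries are therefore called WT-labelled and mutant-labelled below, and no direction is to be read as an effect of losing these factors. Where 2 values follow each other, the WT-labelled library comes first. The 8 primitive streak markers all had UMIs in both libraries, with a summed level of 294 and 475 CPM. Of the 6 markers of anterior streak and endoderm, Cer1 and Sox17 were under 1 CPM in both. Primed epiblast markers summed to 1598 and 1726 CPM. Lower in the mutant-labelled library were the 7 neural markers, at 109 and 74.8 CPM, the 8 naive pluripotency markers, at 68.8 and 55.5 CPM, and the 5 caudal markers, at 30.6 and 25.3 CPM. The 7 extraembryonic endoderm markers were at 75.3 and 72.1 CPM, with 5 and 4 of them under 1 CPM. The part of these cell types in the differences below was not tested.

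The 10 genes lie on 8 chromosomes (GENCODE M21, GRCm38), and 3 of them are neighbours on chromosome 1. Mixl1 (ENSMUSG00000026497) runs from 180693043 to 180697034 on the minus strand, Lefty2 (ENSMUSG00000066652) from 180893108 to 180899103 and Lefty1 (ENSMUSG00000038793) from 180935022 to 180938400, both on the plus strand. No annotated gene overlaps any of the 10. Of 911 windows of 90 bases, about a read's length, at the 3′ end of the Lefty1 transcript, 37 (4.06%) also occur in Lefty2, so a small part of their counts could be split between them. No such window of the other 9 genes occurs in a transcript of another gene.

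Sequence of the 250 bases before the transcription start (RefSeq, GRCm38.p6) was at hand for Nodal, Tdgf1, Gsc and Lhx1. Tdgf1 and Nodal are printed because only their windows lie wholly before the GENCODE start of the gene. The Gsc window (chr12:104473237-104473486, minus strand) lies partly inside the GENCODE gene, which reaches to 104473330. The Lhx1 window meets its gene at base 84525535. Sp-family proteins bind GC-rich boxes, and capitals mark matches to GGGCGG and GGGCGTGG on either strand, motifs that share their first 5 letters. The Tdgf1 window lies at chr9:110946159-110946408, minus strand, and the Nodal window at chr10:61417722-61417971, plus strand.
Tdgf1: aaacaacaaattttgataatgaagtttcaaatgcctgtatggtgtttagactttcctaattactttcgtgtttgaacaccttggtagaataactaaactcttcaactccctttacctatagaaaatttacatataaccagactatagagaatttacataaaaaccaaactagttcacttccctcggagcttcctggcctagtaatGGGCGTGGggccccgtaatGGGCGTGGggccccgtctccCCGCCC
Nodal: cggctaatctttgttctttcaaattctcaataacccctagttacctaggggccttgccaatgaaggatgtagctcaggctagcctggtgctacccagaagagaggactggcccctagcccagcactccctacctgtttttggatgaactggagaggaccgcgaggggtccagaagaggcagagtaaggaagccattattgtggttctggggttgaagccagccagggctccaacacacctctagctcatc
The Tdgf1 window held 2 matches to GGGCGTGG, in adjacent copies of the same stretch, and 1 match to GGGCGG. Of 32851 such windows in the genome, 4.79% had at least 1 match to GGGCGTGG and 32.7% to GGGCGG. The Nodal window held neither, and 1 match to the T-box core AGGTGTG, found in 5.105%. Gsc held 2 matches to GGGCGG and Lhx1 none. None of the 4 windows held the FOXH1 site letters AATCCACA or AATACACA, found in 0.718% and 0.895% of windows. The short motif CAGAC, found in 42.2% of windows, had 1 match each in Tdgf1 and Lhx1 and none in Nodal and Gsc.

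The ligand and its antagonists are described first. Nodal had 2591 UMIs in the WT-labelled library and 2587 in the mutant-labelled library, or 26.7 CPM (25.7 to 27.7) and 26.5 CPM (25.5 to 27.5). The Nodal levels thus did not differ beyond counting error, with a log2 ratio of -0.01 (-0.09 to 0.07). Lefty1 stood at 56.4 CPM (54.9 to 57.9) and 51.6 CPM (50.2 to 53.1), a log2 ratio of -0.13 (-0.18 to -0.07). Its neighbour Lefty2 was higher in the mutant-labelled library, at 17.9 CPM (17.0 to 18.7) against 13.5 CPM (12.8 to 14.3), with a log2 ratio of 0.40 (0.30 to 0.50). Without cells of at least 5 Lefty1 UMIs, an alternative chosen after the values were seen, the Lefty1 log2 ratio was -0.01. This limit picks cells by the gene compared and was not scaled to depth, which was greater in the WT-labelled library. It therefore cannot show which cells made the difference. The Lefty2 ratio was 0.26 with each cell thinned to 2500 UMIs and 0.28 without cells of at least 5 Lefty2 UMIs, under the limit of 0.32 used for counting.

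Tdgf1, the co-receptor gene, was 1.61-fold higher in the mutant-labelled library, at 46.0 CPM (44.6 to 47.3) against 28.5 CPM (27.5 to 29.6). Its log2 ratio was 0.69 (0.62 to 0.76). Foxh1 was close to the limit of detection, with 36 and 56 UMIs in all, or 0.37 CPM (0.26 to 0.51) and 0.57 CPM (0.43 to 0.74). Its log2 ratio of 0.62 (0.00 to 1.28) is too imprecise to place, and Foxh1 is left out of the counts below, which take genes with a mean of at least 1 CPM.

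Among the targets Gsc, a homeobox gene of the organizer and prechordal mesendoderm, differed most. It had 1024 UMIs, 10.5 CPM (9.90 to 11.2), in the WT-labelled library and 2329 UMIs, 23.9 CPM (22.9 to 24.8), in the mutant-labelled library. This was a 2.26-fold difference, a log2 ratio of 1.18 (1.07 to 1.29). Mixl1, a homeobox gene of the primitive streak, stood at 12.1 CPM (11.5 to 12.9) and 16.8 CPM (16.0 to 17.7), a log2 ratio of 0.47 (0.36 to 0.58). Smad7, which encodes an inhibitory SMAD, stood at 54.0 CPM (52.5 to 55.5) and 81.2 CPM (79.4 to 83.0), a log2 ratio of 0.59 (0.54 to 0.64). Pmepa1, whose product restrains SMAD signalling, was at 28.9 CPM (27.8 to 29.99) and 35.2 CPM (34.0 to 36.4), with a log2 ratio of 0.28 (0.21 to 0.36). All 4 of these targets were higher in the mutant-labelled library by more than counting error.

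Lhx1, a LIM homeobox gene of the anterior streak, had only 160 and 106 UMIs, or 1.65 CPM (1.40 to 1.92) and 1.09 CPM (0.89 to 1.31). Its log2 ratio was -0.60 (-0.97 to -0.24). In the WT-labelled library 6 cells, each with at least 5 Lhx1 UMIs, together held 55 of the 160 UMIs. All 6 had UMIs of both T and Eomes. Without their Lhx1 UMIs the WT-labelled library stood at 1.08 CPM, a check chosen after the values were seen. The mutant-labelled library had no cell with 5 Lhx1 UMIs. In thinned cells the Lhx1 ratio was -0.12, under the limit of 0.32 used for counting.

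**Figure D1:**
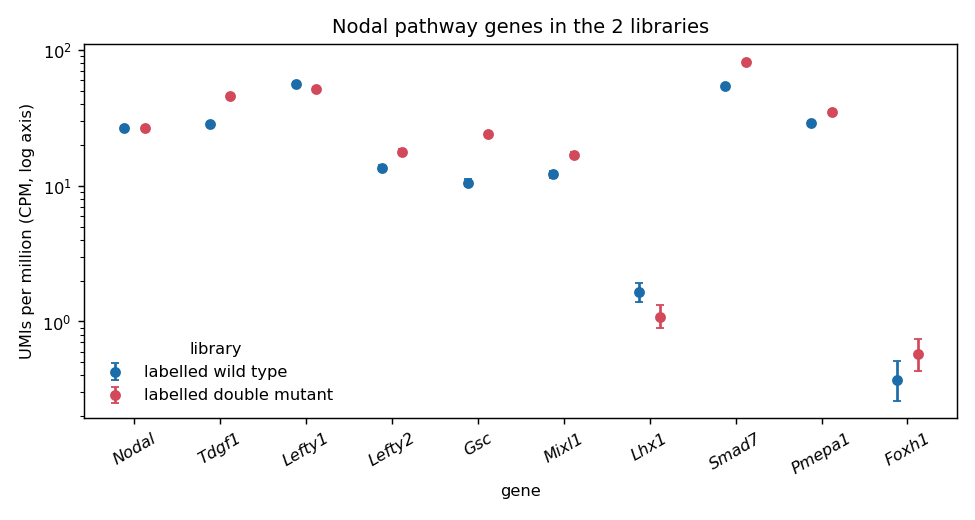
Level of each gene (CPM, log axis) in the WT-labelled library (blue) and in the mutant-labelled library (red), 1 library each, with exact 95% Poisson intervals. Gsc, Tdgf1, Smad7, Mixl1 and Lefty2 lie higher in red, Nodal at the same height, and Lhx1 lower.

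A gene was counted as higher or lower where its log2 ratio was beyond 0.32 in size. By that measure 5 of the 9 genes with a mean of at least 1 CPM were higher in the mutant-labelled library (Tdgf1, Lefty2, Gsc, Mixl1 and Smad7) and 1 was lower (Lhx1). Of all 12406 genes at that level 3.14% were higher and 4.89% were lower by this size. The median log2 ratio was 0.40 over the 9 genes and -0.03 over all genes. Pmepa1, at 1.22-fold, lay just under the limit, and Lefty2, at 1.32-fold, was the nearest above it.

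Barcodes with fewer than 100 UMIs, far below the limit for cells, served as a measure of free RNA. They held Gsc at 9.49 and 20.8 CPM and Tdgf1 at 20.5 and 40.5 CPM in the WT-labelled and mutant-labelled libraries. Mixl1 stood there at 8.35 and 16.5 CPM, and Lefty1 at 33.4 and 41.3 CPM. All 4 genes were lower there than in the cells of the same library, but Mixl1 only slightly in the mutant-labelled library, where its cells had 16.8 CPM. These levels rest on few UMIs, 44 and 61 for Mixl1 and 50 and 77 for Gsc, and no interval is given. Nodal stood at 23.4 and 28.0 CPM in these barcodes, the latter above the 26.5 CPM of the cells. Gsc, Tdgf1 and Mixl1 were higher in the mutant-labelled library in these barcodes too, and so was Lefty1, which was lower in its cells. The part of free RNA in the differences was not tested.

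Shares of cells with a UMI were taken with every cell thinned to 2500 UMIs, since deeper cells show more genes. Cells with UMIs of at least 3 of the 7 neural markers, a type in which these genes should be low, served as background. There were 394 and 124 such cells, with a median of 12080 and 9994 UMIs before thinning. Gsc was found in 2.47% of cells (2.15 to 2.82) in the WT-labelled library and in 5.71% (5.27 to 6.16) in the mutant-labelled library, against 0.761% (0.157 to 2.21) and 4.03% (1.32 to 9.16) of the neural-marker cells. In the latter library the Gsc share thus could not be told from that background. For Tdgf1 the shares were 5.93% (5.44 to 6.44) and 9.15% (8.61 to 9.72), and 0.761% and 1.61% (0.196 to 5.70) in neural-marker cells. Smad7 was found in 12.0% (11.4 to 12.7) and 17.3% (16.6 to 18.1) of cells, and in 4.82% and 3.23% (0.886 to 8.05) of neural-marker cells. Without thinning the shares of cells with Gsc, Tdgf1 and Smad7 were 9.62%, 18.4% and 37.2% in the WT-labelled library, and 16.8%, 24.6% and 43.7% in the mutant-labelled library.

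Nodal gave thinned shares of 6.32% (5.81 to 6.85) and 6.39% (5.94 to 6.88), and 2.79% (1.40 to 4.94) and 4.03% (1.32 to 9.16) in neural-marker cells. Lhx1 was found in 0.345% (0.233 to 0.492) and 0.349% (0.246 to 0.481) of cells. It was in 0 of the 394 and 0 of the 124 neural-marker cells, with exact upper limits of 0.932% and 2.93%. Lefty1 had the largest share of its UMIs in cells with many of them. Cells with at least 5 Lefty1 UMIs, 304 in the WT-labelled library and 230 in the mutant-labelled library, held 47.3% and 42.2% of all Lefty1 UMIs. The highest single cell had 42 and 55. By the same limit cells held 1.47% and 0.232% of Nodal UMIs, 0.488% and 0.644% of Gsc UMIs, and 18.7% and 12.1% of Mixl1 UMIs. Every cell with at least 5 Mixl1 UMIs in the mutant-labelled library (30) also had an Eomes UMI, as did 29 of 30 in the WT-labelled library.

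The genes were next compared between cells with and without a UMI of T, Eomes or Irx3. T and Eomes are T-box genes of the primitive streak, and Irx3 is a homeobox gene found in neural and posterior ectoderm. T was found in 26.0% and 29.3% of cells in the WT-labelled and mutant-labelled libraries, Eomes in 43.4% and 61.8%, and Irx3 in 15.5% and 6.21%. Thinned to 2500 UMIs, the shares were 7.83% and 10.8% for T, 16.7% and 32.2% for Eomes, and 4.64% and 2.09% for Irx3. Positive cells were deeper than negative ones, with median UMIs of 11547 against 9786 for Eomes in the WT-labelled library and 9179 against 7839 in the mutant-labelled library. Eomes and Irx3 each have an annotated antisense gene, Gm33460 and Irx3os, so their own counts are less certain. Cells of 1 library are not replicates, so these values are a description of each library.

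Eomes-positive cells had more of most targets. Mixl1 stood at 20.8 CPM in Eomes-positive and 3.96 CPM in Eomes-negative cells of the WT-labelled library, a log2 ratio of 2.39 (2.17 to 2.62). The corresponding levels were 22.5 and 5.46 CPM in the mutant-labelled library, a log2 ratio of 2.04 (1.82 to 2.28). Gsc followed, with log2 ratios of 1.59 (1.39 to 1.80) and 1.47 (1.30 to 1.63). Pmepa1 was at 40.1 against 18.3 CPM and at 42.0 against 21.7 CPM. Its level thus differed more between Eomes-positive and Eomes-negative cells than between the libraries. Tdgf1 had log2 ratios of 1.21 (1.09 to 1.32) and 0.64 (0.54 to 0.74). Smad7 had 0.55 (0.48 to 0.63) and 0.48 (0.41 to 0.56). In all, 8 of 9 genes were counted as higher in Eomes-positive cells of the WT-labelled library, and 6 of 9 in the mutant-labelled library. Of all genes 3.71% and 3.34% were. Both counts include Lhx1, at 1.47 (0.97 to 2.02) and 0.46 (-0.16 to 1.16). The 6 cells of many Lhx1 UMIs in the WT-labelled library were all Eomes-positive. None of the 9 was lower in the WT-labelled library, where 5.57% of all genes were.

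Lefty1 stood apart from the other targets here, being counted as higher with Eomes in neither library. Lefty2 was counted as higher in the WT-labelled library only. Lefty1 was at 58.0 CPM in Eomes-positive and 54.8 CPM in Eomes-negative cells of the WT-labelled library, a log2 ratio of 0.08 (0.01 to 0.16). In the other library it was lower with Eomes, at 43.3 against 68.2 CPM, a log2 ratio of -0.65 (-0.74 to -0.57), where 5.63% of all genes were counted as lower. Lefty2 was at 15.4 against 11.8 CPM and at 18.1 against 17.4 CPM, with log2 ratios of 0.39 (0.23 to 0.55) and 0.06 (-0.09 to 0.21). Nodal itself had log2 ratios of 0.51 (0.39 to 0.62) and 0.26 (0.14 to 0.39).

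T-positive cells also had more of most targets. Mixl1 was highest in T-positive over T-negative cells, at 25.6 against 6.44 CPM in the WT-labelled library and 30.9 against 9.83 CPM in the mutant-labelled library. Its log2 ratios were 1.99 (1.82 to 2.16) and 1.65 (1.51 to 1.80). Gsc had 1.06 (0.88 to 1.24) and 0.91 (0.79 to 1.03), Tdgf1 0.99 (0.89 to 1.10) and 0.76 (0.67 to 0.85), and Pmepa1 0.91 (0.80 to 1.02) and 0.66 (0.56 to 0.75). Lhx1 had 1.45 (0.99 to 1.92) and 0.40 (-0.20 to 0.98), the former in the library with the 6 cells of many Lhx1 UMIs. Unlike by Eomes, Lefty2 was higher in both libraries, at 0.62 (0.46 to 0.78) and 0.51 (0.37 to 0.65), and Lefty1 in the WT-labelled library, at 0.47 (0.39 to 0.55). Smad7 had 0.44 (0.36 to 0.52) and 0.33 (0.26 to 0.39). All 9 genes were counted as higher in the WT-labelled library, against 3.42% of all genes, and 7 of 9 in the mutant-labelled library, against 2.77%. The exceptions in the latter were Nodal, at 0.16 (0.04 to 0.27), and Lefty1, at 0.03 (-0.05 to 0.12). None was lower, where 5.01% and 4.23% of all genes were. With cells thinned the counts of higher genes were 7 and 5, for which no share over all genes is given.

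Irx3-positive cells had less of most genes. Tdgf1 was lower in them than in Irx3-negative cells, at 11.5 against 32.0 CPM in the WT-labelled library and 20.6 against 47.8 CPM in the mutant-labelled library. Its log2 ratios were -1.47 (-1.70 to -1.26) and -1.21 (-1.47 to -0.97). Nodal stood at 13.9 against 29.3 CPM and at 18.5 against 27.1 CPM, with log2 ratios of -1.08 (-1.28 to -0.88) and -0.55 (-0.83 to -0.29). Mixl1 had -1.04 (-1.35 to -0.76) and -1.35 (-1.83 to -0.94). Smad7 had -1.07 (-1.21 to -0.93) and -0.67 (-0.83 to -0.51). The count of lower genes was 8 of 9 in each library, where 4.97% and 6.76% of all genes were. Lhx1, with 24 and 9 UMIs in Irx3-positive cells, was the exception. Its log2 ratio was 0.42 (-0.82 to 1.34) in the mutant-labelled library, where 11.8% of all genes were counted as higher. None of the 9 was higher in the WT-labelled library, against 6.19% of all genes.

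Several marker lists moved with these splits, but not all. The 4 anterior streak and endoderm markers other than Gsc and Lhx1 were level by Eomes in the WT-labelled library. They stood at 10.1 CPM in its Eomes-positive and 10.2 CPM in its Eomes-negative cells, and at 15.3 and 9.64 CPM in the mutant-labelled library. By the same split the 5 caudal markers were at 29.6 and 31.5 CPM, and at 24.9 and 26.0 CPM. Over the 6 neural markers other than Irx3, the summed level was 129 CPM in Irx3-positive and 80.7 CPM in Irx3-negative cells of the WT-labelled library, and 97.3 and 64.4 CPM in the mutant-labelled library. Over the 5 streak markers other than T, Eomes and Mixl1, Eomes-positive and Eomes-negative cells had 210 and 97.4 CPM, and 263 and 140 CPM. The 8 naive pluripotency markers were at 49.6 and 86.9 CPM, and at 46.3 and 73.8 CPM. Extraembryonic endoderm markers stood at 56.6 and 93.0 CPM, and at 60.0 and 96.1 CPM. In T-positive and T-negative cells the streak markers were at 226 and 121 CPM, and at 302 and 182 CPM. By the same split naive markers were at 53.0 and 75.5 CPM, and at 43.7 and 61.4 CPM, and neural markers at 70.4 and 96.7 CPM, and at 56.9 and 71.5 CPM. Mitochondrial shares differed little, from 3.78% to 4.14% over all these groups. Their part in the differences was not tested.

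**Figure D2:**
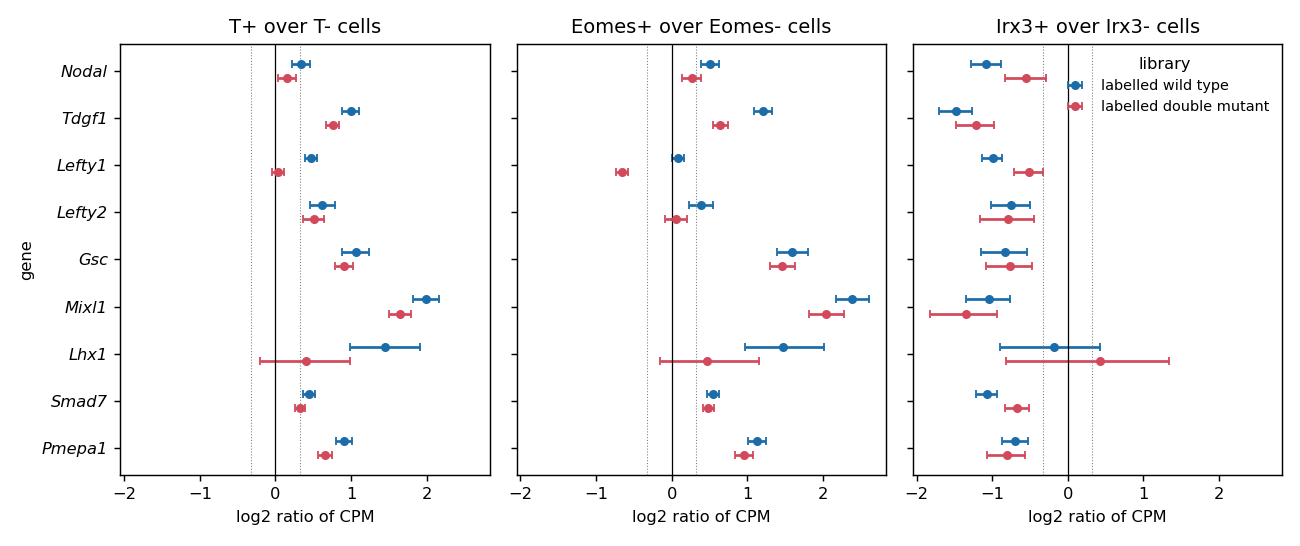
Log2 ratio of CPM in cells with a UMI of T (left), Eomes (middle) or Irx3 (right) over cells without, for 9 genes in the WT-labelled library (blue) and in the mutant-labelled library (red), with exact 95% counting intervals. Dotted lines mark the limit for a count. Mixl1 lies farthest right for T and Eomes, and Lefty1 lies left of 0 for Eomes in the mutant-labelled library, at -0.65. Foxh1 is not drawn, having 36 and 56 UMIs.

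The levels were also followed over the number of Eomes UMIs in the thinned cell, from 0 to 3 or more, with 50 and 256 cells in the highest step. Mixl1 went from 8.74 CPM at 0 Eomes UMIs over 24.8 and 32.8 CPM to 72.1 CPM (52.4 to 96.8) in the WT-labelled library. It went from 11.6 over 23.5 and 31.6 to 50.8 CPM (42.3 to 60.4) in the mutant-labelled library. Gsc went from 8.70 over 17.2 and 22.4 to 42.6 CPM (27.8 to 62.4), and from 18.5 over 32.3 and 37.1 to 48.0 CPM (39.8 to 57.4). Thus at 0, 1 and 2 Eomes UMIs the Gsc intervals of the libraries lay apart, and in the highest step they overlapped. Nodal ran only from 25.7 to 36.5 CPM and from 25.3 to 29.5 CPM over the steps. Lefty1 was at 56.0 and 56.3 CPM in cells with no Eomes UMI, and at 57.1 (53.1 to 61.2) and 41.5 CPM (38.9 to 44.2) in cells with 1. With 2 it was at 67.9 (58.9 to 77.9) and 45.7 CPM (40.8 to 51.0). In the highest step it was at 36.1 (22.6 to 54.6) and 42.0 CPM (34.3 to 50.8), and these intervals overlapped.

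**Figure D3:**
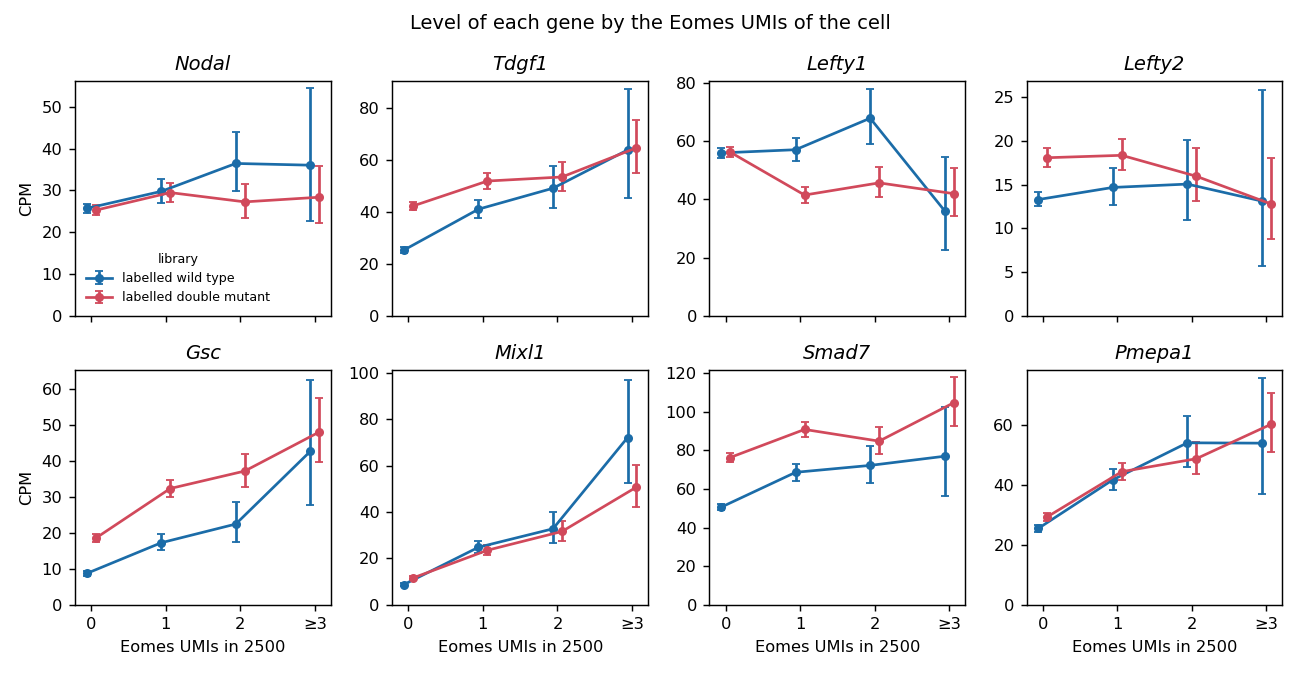
Level (CPM) of 8 genes in cells with 0, 1, 2 or at least 3 Eomes UMIs among 2500, in the WT-labelled library (blue) and in the mutant-labelled library (red), with exact 95% Poisson intervals. Mixl1, Gsc and Pmepa1 are higher at 1 and 2 Eomes UMIs than at 0, while Lefty2 stays between 12.8 and 18.3 CPM. Lhx1 and Foxh1 are not drawn because of their low counts.

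Since more cells had Eomes in the mutant-labelled library, the libraries were compared within the 8 classes of cells with and without T, Eomes and Irx3 UMIs. Of these, 6 had at least 100 cells in each library. Gsc was higher in the mutant-labelled library in all 6, with log2 ratios from 0.83 (0.65 to 1.02) in T- Eomes+ Irx3- cells to 1.63 (0.95 to 2.37) in T- Eomes+ Irx3+ cells. In cells with none of the 3 genes it stood at 5.15 and 10.3 CPM, a log2 ratio of 1.00 (0.71 to 1.30). In T- Eomes- Irx3+ cells, with 27 and 15 Gsc UMIs, the interval reached below 0, at 0.92 (-0.12 to 1.86). Smad7 was also higher in all 6 classes, from 0.40 (0.30 to 0.50) in T+ Eomes+ Irx3- cells to 0.70 (0.35 to 1.05). Tdgf1 ranged from 0.28 (0.16 to 0.39) in T+ Eomes+ Irx3- cells to 0.99 (0.75 to 1.24) in T+ Eomes- Irx3- cells. The classes were set without thinning, and depth differed between the libraries. Cells with none of the 3 genes had a median of 9366 and 7649 UMIs. They made up 37.9% and 29.1% of cells, and 73.8% and 60.2% with cells thinned. Such cells can thus hold unseen T, Eomes or Irx3 RNA, possibly to an unlike extent in the libraries. The part of this in the ratios within classes, and with equal class shares below, was not tested.

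Mixl1 and Pmepa1 differed less in the Eomes-positive classes than over all cells, but not in cells with none of the 3 genes. In the latter Mixl1 had a log2 ratio of 0.54 (0.15 to 0.94) and Pmepa1 of 0.30 (0.12 to 0.47). The smaller difference was not confined to Eomes-positive cells. In T+ Eomes- Irx3- cells the ratios were 0.08 (-0.45 to 0.59) for Mixl1 and -0.03 (-0.33 to 0.27) for Pmepa1. In T- Eomes- Irx3+ cells they were 0.40 (-1.31 to 1.76) and -0.36 (-1.09 to 0.26). In T+ Eomes+ Irx3- cells Mixl1 stood at 33.9 and 36.0 CPM, a log2 ratio of 0.09 (-0.06 to 0.24). Pmepa1 stood at 50.5 and 50.8 CPM in the same cells, a log2 ratio of 0.01 (-0.12 to 0.13). With each class given the same share of UMIs in both libraries, the log2 ratio over all cells was 0.13 for Mixl1, which ended its call, and 0.08 for Pmepa1. It was 0.91 for Gsc, 0.47 for Tdgf1, 0.44 for Smad7, 0.32 for Lefty2 (also just under the limit) and -0.13 for Nodal. For Lhx1 it was -0.71. By equal class shares 3 genes were thus counted as higher, in place of 5, and Lhx1 was still the 1 counted as lower. No share over all genes is given for this setting, so the lower count is a description only.

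Lefty1 had no single direction between the libraries. In cells with none of T, Eomes and Irx3 it was higher in the mutant-labelled library, at 70.0 against 57.0 CPM, a log2 ratio of 0.30 (0.20 to 0.39). In T- Eomes- Irx3+ cells the log2 ratio was 0.69 (0.29 to 1.07). In the 4 other classes it was lower, from -0.35 (-0.53 to -0.16) in T+ Eomes- Irx3- cells to -0.91 (-1.42 to -0.44) in T- Eomes+ Irx3+ cells. Nodal was lower within both large Eomes-positive classes, with log2 ratios of -0.20 (-0.34 to -0.07) in T- and -0.25 (-0.41 to -0.09) in T+ Eomes+ Irx3- cells. Lhx1 in T+ Eomes+ Irx3- cells had 65 and 32 UMIs, a log2 ratio of -1.56 (-2.23 to -0.93), and the 6 cells with many Lhx1 UMIs were all T-positive and Eomes-positive. Of 50 pairs of gene and class with a mean of at least 1 CPM, 23 were counted as higher in the mutant-labelled library and 7 as lower. Of all 74288 such pairs over all genes 10.3% were higher and 11.4% were lower, so the count of lower pairs lay near that of genes at large.

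**Figure D4:**
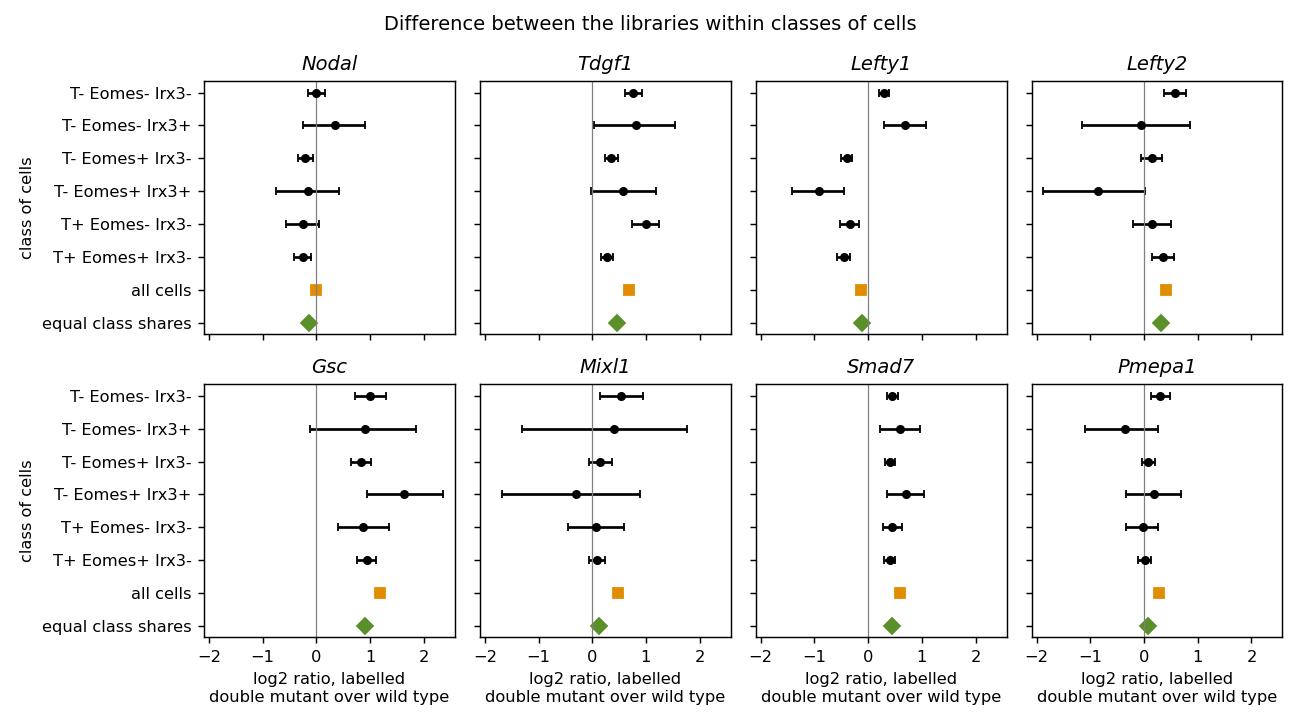
Log2 ratio of the mutant-labelled library over the WT-labelled library for 8 genes within 6 classes of cells (black, exact 95% counting intervals), in all cells (orange square) and with equal class shares (green diamond). Gsc and Smad7 lie right of 0 in each class, Mixl1 and Pmepa1 come near 0 with equal class shares (0.13 and 0.08), and Lefty1 lies on both sides.

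The other genes of the pathway were taken from a list of 37, of which 28 had a mean of at least 1 CPM. Counted as higher in the mutant-labelled library were 6, and 0 as lower, with a median log2 ratio of 0.04. Of all genes at that level 3.14% were higher and 4.89% were lower. All 6 were among the 7 further targets: Foxa2, a forkhead gene of endoderm, at 1.57 (1.35 to 1.80), Eomes at 1.03 (0.99 to 1.06), Otx2, a homeobox gene of epiblast and anterior tissue, at 0.86 (0.80 to 0.93), and Fgf8 at 0.73 (0.69 to 0.76). Fgf5, a marker of primed epiblast, was at 0.56 (0.51 to 0.60), and T at 0.39 (0.33 to 0.45). Mesp1, a gene of nascent mesoderm below the level limit, had 131 and 36 UMIs, or 1.35 and 0.37 CPM.

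Of the ligand, receptor and effector genes with a mean of at least 1 CPM none passed the limit. With 3.14% of all genes higher and 4.89% lower, lists this short would be likely to hold few such genes or none. Gdf3, which encodes a related ligand, stood at 11.4 and 12.6 CPM, while Inhba and Inhbb, which encode activin subunits, had at most 8 UMIs each. Gdf1 had 0 UMIs, which by a limit of 3 UMIs allows up to 0.031 CPM in each library if its reads were counted. Overlap of Gdf1 with other genes was not checked, so its 0 is not read as absence. Of the receptor genes, Acvr2b was at 51.8 and 55.0 CPM, Tgfbr1 at 16.1 and 15.9 CPM and Acvr1b at 7.95 and 8.12 CPM. Cfc1, a co-receptor gene related to Tdgf1 and below that level, had 27 and 48 UMIs, a log2 ratio of 0.81 (0.11 to 1.56). Smad4, the common SMAD, stood at 100.3 and 100.2 CPM, a log2 ratio of 0.00 (-0.04 to 0.04). Smad2 was at 23.3 and 20.1 CPM, with -0.21 (-0.30 to -0.12), and Smad3 at 10.2 and 10.4 CPM. Furin, which encodes a convertase that can process pro-Nodal, was at 9.33 and 10.1 CPM. Of 11 cofactor and repressor genes, again a short list, none passed the limit. Drap1, a FOXH1 repressor, had 0.10 (0.07 to 0.14), Tgif1, a SMAD corepressor, 0.15 (0.11 to 0.19), and the SMAD phosphatase gene Ppm1a 0.00 (-0.04 to 0.04). The antagonist Cer1 had 0 and 2 UMIs, so no ratio is given.

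Co-detection in thinned cells showed which genes were found together. Of cells with a Lefty2 UMI, 26.2% in the WT-labelled library and 23.3% in the mutant-labelled library also had Lefty1, against 8.77% and 8.11% of cells without Lefty2. Of cells with Mixl1, 38.3% and 52.5% had Eomes, against 16.1% and 31.4% of cells without Mixl1. For Gsc these shares were 30.7% and 45.4%, against 16.4% and 31.4%. Lefty1 cells had Eomes in 19.1% and 28.3%, against 16.5% and 32.5% of cells without Lefty1. Lefty1 was thus found more often in cells with Lefty2, and Mixl1 and Gsc cells had Eomes more often. In Lefty1 cells Eomes was less frequent than in cells without Lefty1 in the mutant-labelled library, where the interval of the share was 25.4 to 31.3, and not in the WT-labelled library (16.4 to 22.0).

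Pearson correlations over single cells (log of 1 plus counts per 10000 UMIs, 8707 and 10587 cells) were weak throughout, as sparse counts give, and are a description only. For Tdgf1 the most alike genes were Dppa5a, with r of 0.29 and 0.30 in the WT-labelled and mutant-labelled libraries, Fgf8 (0.30 and 0.24) and Sgk1 (0.19 and 0.20). For Mixl1 they were Fgf8, Eomes and T, with Fgf8 at 0.25 and 0.24. For Gsc they were Fgf8 (0.23 and 0.27), Eomes and Mixl1, and for Pmepa1 Fgf8, Eomes and Gsc. Lefty1 and Lefty2 had an r of 0.24 in each library. Smad7 was most like Trh (0.21 and 0.21), L1td1 and Tdgf1. Nodal was most like Dppa5a (0.17 and 0.11) and Tdgf1. Lhx1 was most like Mixl1, at 0.15 and 0.05. All these pairs share library and depth.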

How the data were processed

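For 2 libraries of 10x single-cell 3′ chemistry the authors deposited raw counts (UMIs). The labels' protocols name Cell Ranger 8.0.1, and the submitters' processing notes list STARsolo, STAR 2.7.9a, Seurat 5.1.0 and mm10, with no roles. The median genes per cell here (3275 and 2884) are below those in the labels, and whether the choice of cells accounts for this was not tested. All possible barcodes are in the files, and cells were chosen by the limits given in the text, which removed 64 and 26 barcodes for mitochondrial share. Doublets were kept. An alternative removed the highest doublet scores, 606 (6.96%) and 897 (8.47%) cells. The kept cells of the libraries share 27 barcodes, where 13.6 would be shared at random.

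Counts were summed and scaled to the library total (CPM). Log2 ratios carry a pseudocount of 0.5 UMI and an exact conditional 95% interval, level intervals are exact Poisson and shares exact binomial (Clopper-Pearson). There is no test, since each genotype has 1 library. Genes were counted past a log2 ratio of 0.32, and the code for this was tested on simulated data. Named are the 10 genes, T, Eomes, Irx3, Sp5, Sp8, pathway genes past that limit or among the 3 most abundant of their role, and the 3 genes most alike each member over cells. Some genes that this rule names are not reported here. Whether the counting used strand is not given in the sources used here. Members and lists were chosen with earlier results of these data known. Alternatives changed the cell limits, thinning, scaling (TMM in edgeR 4.0.16, size factors), minimum level, call size, the UMIs that make a cell positive, class shares, and cells low on chromosome 11 or 6. Python 3.11.15 and scipy 1.17.1 were used.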

Additional observations from a re-analysis of the deposited data

Results flagged for a closer look

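The relation of Lefty1 to Eomes had opposite signs in the libraries. The log2 ratio of Eomes-positive over Eomes-negative cells was 0.083 (0.01 to 0.16) in the WT-labelled library and -0.65 (-0.74 to -0.57) in the mutant-labelled library, with intervals for counting error only. The difference was not tested, as each genotype has 1 library. Over the alternatives it ran from -0.06 to 0.20 in the WT-labelled library, where the positive sign did not hold when a positive cell needed 2 UMIs, and from -0.67 to -0.42 in the mutant-labelled library. In thinned cells with at least 3 Eomes UMIs, Lefty1 stood at 36.1 (22.6 to 54.6) and 42.0 CPM (34.3 to 50.8), so the libraries did not lie apart there.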

How the results depend on the processing

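No paired analysis was possible because each genotype has 1 library. The counts below come without shares over all genes, so how far genes at large moved with each setting is not shown. The number of genes higher in the mutant-labelled library went from 5 to 3 with a call of 1.5-fold and to 3 with equal class shares. The number lower went from 1 to 0 with a minimum mean CPM of 10 and with thinned cells, Lhx1 being the gene. With a call of 1.5-fold the number higher in Eomes-positive cells of the WT-labelled library was 5 in place of 8, and in T-positive cells of the mutant-labelled library 4 in place of 7. The 1 gene higher in Irx3-positive cells of the mutant-labelled library (Lhx1) gave 0 with a call of 1.5-fold, a minimum mean CPM of 10, a mitochondrial limit of 5% and without cells low on chromosome 11 or 6. With no minimum CPM, 1 gene was lower in Eomes-positive and 1 higher in Irx3-positive cells of the WT-labelled library, and between libraries 1 other pathway gene was lower (Mesp1), 9 were higher in place of 6, and 6 of the 10 genes were higher in place of 5. Pairs of gene and class higher numbered 13 in place of 23, over 35 pairs in place of 50, when a positive cell needed 2 UMIs. Among ratios past the limit, signs turned for Lhx1 by T in the WT-labelled library (-0.10) and Foxh1 by Eomes in the WT-labelled library (1.95) and by Irx3 in the mutant-labelled library (0.42), all in thinned cells, and for Lhx1 by Eomes in the mutant-labelled library with 2 UMIs (-0.26). These rest on few UMIs. Ratios under the limit changed sign too, among them Foxh1 by T in the WT-labelled library (down to -0.35), Foxh1 by Eomes (up to 0.25), Lefty2 by Eomes (down to -0.12) and Lefty1 by T (down to -0.06) in the mutant-labelled library. In an alternative chosen after seeing the data, without cells with at least 5 UMIs of the gene, the log2 ratio between libraries was 0.0051 for Lhx1 and 0.28 for Lefty2, which ended both calls. Of the other values of single genes, 437 stayed within the counting interval and 108 moved out of it. The cause of these changes was not tested. Lhx1 lies on chromosome 11, where 17.7% and 5.82% of cells had at most 0.8 times the median share of UMIs. Without cells low there or on chromosome 6 its log2 ratio was -0.78. The median log2 ratio of all genes was -0.03, and 0.00 with TMM scaling.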

Other observations

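Cells with UMIs of at least 3 of the 8 naive pluripotency markers, 143 in the WT-labelled library and 88 in the mutant-labelled library, had the antagonists and the co-receptor more often than all cells did. In thinned cells Lefty2 was found in 10.5% (5.99 to 16.7) and 13.6% (7.25 to 22.6) of them, against 3.20% and 3.56% of all cells. Tdgf1 was found in 13.3% (8.19 to 20.0) and 17.0% (9.87 to 26.6), against 5.93% and 9.15%. Lefty1 was found in 15.4% (9.90 to 22.4) and 20.5% (12.6 to 30.4), against 9.33% and 8.65%. Gsc was in 2.10% (0.435 to 6.01) and 1.14% (0.029 to 6.17), against 2.47% and 5.71% of all cells, which lie within these intervals. Mixl1 was in 0 of 143 (up to 2.55%) and 2 of 88 cells. These cells were deeper before thinning, with medians of 12378 and 10097 UMIs, and their number is small.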
